A study of Mus musculus with 11 samples.

Results

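The spleens of B6 mice that had been injected with DMXAA were compared with spleens of B6 mice whose labels name no injection. These are 4 of the 11 mice of the series, taken by their labels, and all 93 genes of a custom NanoString nCounter panel were used. The DMXAA arm held 2 WT/B6 mice, and the uninjected arm held 1 WT/B6 mouse and 1 cGAS KO/B6 mouse, so that the controls differ from each other in genotype. All 4 are labelled female. Dose, route and time of the injection are not given in the sources used here, and ages are given there for mice of other assays but not for these 4. The cGAS gene is not on the panel, so the knockout label could not be checked, and no list of spleen cell markers had a member on the panel, so the tissue label could not be checked either. The labels give the tissue as spleen, and the study's text speaks of total splenocytes. In RNA of such mixed cells, a change in the number of cells of a type and a change in RNA per cell cannot be told apart.

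DMXAA is a small molecule that binds mouse STING directly. STING is the adaptor of a cytosolic DNA-sensing pathway in which the enzyme cGAS detects DNA and makes the cyclic dinucleotide that STING normally binds. Active STING recruits the kinase TBK1, which activates the transcription factor IRF3, and it also engages NF-kB. IRF3 and NF-kB together switch on the interferon-β gene, and secreted type I interferon then induces a broad set of antiviral genes through its receptor. Because DMXAA acts downstream of cGAS, it has been used as a reference stimulus for STING.

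The mice differed strongly in the number of counts behind their values. The deposited signal of each mouse is a whole count multiplied by a factor of its own. The factor was 0.0823 in the WT/B6 mouse, 0.2969 in the cGAS KO/B6 mouse, and 1.612 and 1.64 in the 2 DMXAA mice. Dividing by that factor returned a whole number for all 372 values of the 4 mice (tolerance 0.0001). These recovered counts summed to 3612 in the WT/B6 mouse and 12386 in the cGAS KO/B6 mouse. They summed to 647148 and 600677 in the 2 DMXAA mice. The median gene had 21 and 36 counts in the uninjected mice and 681 and 605 counts in the DMXAA mice. Of the 93 genes, 46 had under 20 counts in the WT/B6 mouse and 26 in the cGAS KO/B6 mouse, against 11 in each DMXAA mouse, and 24 genes were under 20 in both controls. The level of background counts was not analysed here.

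Levels are given as log2 signal minus the median of the 93 genes in the same mouse. This removes the factor, and with it the authors' normalization of the deposited signal to housekeeping genes. On this scale 0 is the panel median of the mouse, and a gene with the same recovered count in all 4 mice has a difference of -4.55. A lower level is therefore a level that lagged behind the panel, and it need not be a lower count. The 2 DMXAA mice were close to each other, with a median absolute difference of 0.13 over the 93 genes. The 2 uninjected mice were 0.70 apart by the same measure, and 34 genes differed by more than 1 between them, against 3 genes in the DMXAA pair. The difference between the arms had a median size of 2.36.

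DMXAA spleens had far higher levels of type I interferon, of chemokines and of a subset of interferon-induced genes. Ifit1 led the panel, with a level 7.57 above that of the uninjected mice on the log2 scale (SE 0.38), followed by ccl4 at 7.22 and Ifnb1 at 6.54. The 7 genes with the highest counts in the DMXAA mice were viperin, cxcl10, ccl4, Ifit1, Ifnb1, tnfa and Ifit2. Together they held 76.0% and 76.9% of all panel counts there, against 5.37% in the WT/B6 mouse and 7.77% in the cGAS KO/B6 mouse. At the other end, Il-1b had fewer counts in both DMXAA mice than in either control, although total panel counts were at least 48.5 times higher. On the deposited signal Il-1b was instead higher with DMXAA (32.24 and 34.43) than in the WT/B6 (4.362) and cGAS KO/B6 (16.63) mice. The DMXAA values of Il-1b rest on 20 and 21 counts, and background was not analysed.

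In limma over all 93 genes, 71 were called, meaning a Benjamini-Hochberg adjusted p under 0.05 (76.3% of the panel). Of these, 28 were higher (30.1%) and 43 lower (46.2%) in the DMXAA mice. The arms did not overlap in 34 genes with higher levels (36.6%) and 48 genes with lower levels (51.6%). The panel is small and was chosen for innate immune genes, so its median is no neutral reference. The split of calls followed the scaling: it was 87 higher and 0 lower on the deposited signal without centring, where all 93 differences were above 0, and 66 higher and 1 lower on unscaled recovered counts. It was 8 higher and 57 lower per total count, and 35 higher and 31 lower with median-of-ratios scaling. These scalings and the centring shift every gene by the same amount, so the order of the 93 differences is the same in each. The median difference of the panel was -0.87 after centring, 7.06 on the deposited signal, 3.68 on unscaled counts, -2.86 per total count and -0.01 with median-of-ratios scaling. Every "higher" and "lower" that follows is relative to the panel median of the mouse unless another scale is named, and the p-values rest on 2 mice against 2. An exact permutation test of such a design cannot go below 0.333, two-sided. With the WT/B6 mouse as the only control 33 genes were called higher and 47 lower, and with the cGAS KO/B6 mouse 28 and 49. In these 2 fits the spread comes from the close DMXAA pair alone (1 residual degree of freedom, and an SE of 0.395 for every gene with the WT/B6 mouse), so their calls say nothing about stability. Without DMXAA replicate 1 there were 17 higher and 32 lower calls, and without DMXAA replicate 2 there were 16 and 32, with the spread taken from the 2 controls alone. The counts of each gene list that follow stand against the panel's 30.1% called higher and 46.2% called lower.

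**Figure D1:**
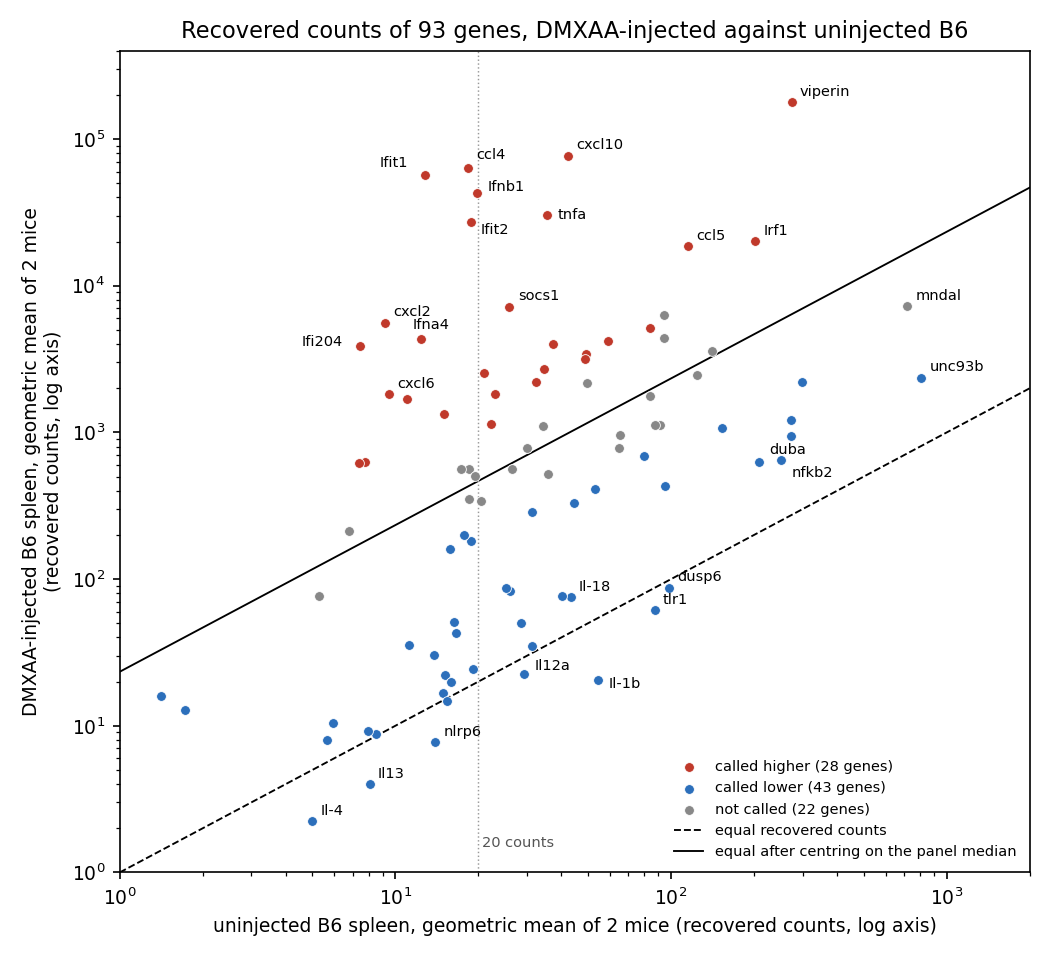
Recovered counts of the 93 genes, as the geometric mean of the 2 uninjected mice (x axis, log) and of the 2 DMXAA mice (y axis, log); colours give the limma call after centring. The dashed line marks equal counts and the solid line equal levels after centring, and 28 genes called higher lie above the solid line while 43 called lower lie below it. Of the genes called lower, all 43 have positive differences on the deposited signal and 35 do on unscaled counts; per total count, 11 of those called higher have negative ones.

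Type I interferon genes were among the largest rises. Ifnb1, which encodes interferon-β, had 17 counts in the WT/B6 mouse, 23 in the cGAS KO/B6 mouse, and 47509 and 38759 in the DMXAA mice. Its centred level was -0.30 and -0.65 in the controls and 6.06 ± 0.09 (SD, n = 2) with DMXAA, and limma gave an adjusted p of 4.61e-05. Ifna4, which encodes an interferon-α, had 14 and 11 counts in the controls and 4528 and 4108 with DMXAA, a difference of 3.90 (SE 0.49, adjusted p = 0.000547). Both genes had few counts in the uninjected spleens and many in both DMXAA spleens, with no overlap. The Ifna4 control values rest on under 20 counts in both mice, and that of Ifnb1 does so in the WT/B6 mouse. The exact Poisson 95% interval of the 17 Ifnb1 counts is 9.90 to 27.2, and that of the 23 counts is 14.6 to 34.5, which cover counting error only. Interferon-α genes are close copies of each other, and how far the Ifna4 probe also counts its relatives is not known here.

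Antiviral effectors, the proteins that block viral replication or remove viral nucleic acid, included genes that rose steeply and genes that were not called. Of the 9 on the panel, 5 were called higher, none lower and 4 were not called, and their median difference was 1.38 against -0.87 for the panel (-0.61 against -2.86 per total count, the scaling under which this median is below 0). Ifit1, which binds viral RNA that lacks host cap methylation, had 11 and 15 counts in the WT/B6 and cGAS KO/B6 mice and 58669 and 55296 with DMXAA. Its adjusted p was 3.39e-05, and both control values rest on under 20 counts. Ifit2, of the same family, had 9 and 39 counts in the controls and 30190 and 24734 with DMXAA (difference 5.97, adjusted p = 0.000205). These 2 genes went from below or near the panel median to among the most counted of the panel.

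Viperin, a radical-SAM enzyme that makes a chain-terminating nucleotide, was already well counted without injection. It had 114 counts in the WT/B6 mouse, 657 in the cGAS KO/B6 mouse, and 181097 and 174684 in the DMXAA mice. Its share of the panel's counts was 3.16% (exact binomial 95% interval 2.61 to 3.78) and 5.30% (4.92 to 5.71) in the controls, and 28.0% and 29.1% with DMXAA. The difference was 4.80 (SE 0.61, adjusted p = 0.000601), and it was 5.67 against the WT/B6 mouse and 3.92 against the cGAS KO/B6 mouse. The exonuclease trex1, which degrades cytosolic DNA, rose by 1.61, and the GTPase Ifi47 by 1.38, with 38 and 58 counts or more in every mouse. Per total count these differences were -0.38 and -0.61, and neither gene was called with voom (adjusted p = 0.0549 and 0.0710).

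The other 4 effectors had differences near 0. The RNA-degradation activator synthetase oas2 had 28, 42, 1388 and 882 counts in the WT/B6, cGAS KO/B6 and 2 DMXAA mice, a difference of 0.47 (adjusted p = 0.319). The Z-nucleic-acid sensor zbp1, with 51, 137, 1846 and 1677 counts, had a difference of -0.15, and the dNTP hydrolase samhd1, with 53, 289, 2518 and 2430, one of -0.22. For both, the sign depended on the control: zbp1 was 0.17 against the WT/B6 mouse and -0.47 against the cGAS KO/B6 mouse, and samhd1 was 0.61 and -1.06. The RNA-editing deaminase adar, named after its values were seen to complete the list, had 11, 31, 594 and 541 counts and a difference of 0.40, with under 20 counts in the WT/B6 mouse.

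**Figure D2:**
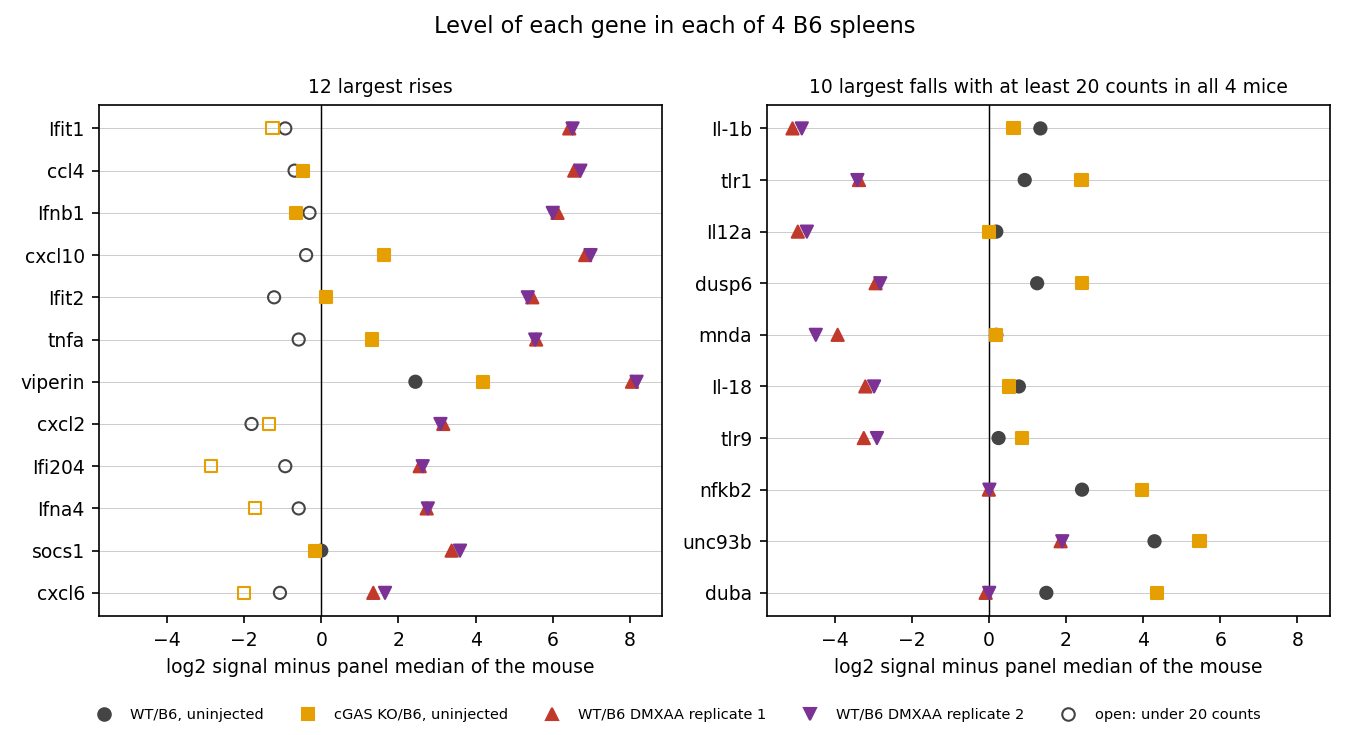
Level of 22 genes in each of the 4 B6 spleens, as log2 signal minus the panel median of the mouse; symbols are single mice and open symbols rest on under 20 recovered counts. The 2 DMXAA mice lie close together and apart from both controls in every gene shown. On the deposited signal the difference between arm means is above 0 for the 10 genes of the right panel. On unscaled counts that difference is above 0 for 6 of them.

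Transcription factors of the interferon response were called in both directions, as the panel was. Of 5 signaling and response factors, 2 were called higher and 3 lower, shares not far from the panel's 30.1% and 46.2%, with a median of -1.65 (6.27 on the deposited signal and 2.89 on unscaled counts). Irf7, which amplifies interferon-α production, had 33 and 42 counts in the controls and 4162 and 3805 with DMXAA, and rose by 2.19 (adjusted p = 0.00238). Irf1, an activator of interferon-stimulated and MHC class I genes, had 111, 367, 20997 and 19236 counts and rose by 2.09 (adjusted p = 0.00567). Irf5, which acts downstream of Toll-like receptors, had 160, 462, 961 and 925 counts and fell by 2.75 (adjusted p = 0.00137). The cytokine-signal transducer stat3, with 51, 176, 431 and 433 counts, fell by 2.36. Irf2, which competes with Irf1 for DNA and is in no list, was chosen after its values were seen: it had 172, 433, 1314 and 1119 counts and fell by 2.39. Irf5, stat3 and Irf2 had more counts in both DMXAA mice than in either control, by less than the panel did.

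Sensors of cytosolic nucleic acid also divided. Of 8 on the panel, 4 were called higher, 1 lower and 3 were not called, with a median of 0.66 (-1.33 per total count, and -0.15 when genes low in both controls, here Ifi204, are left out). Ifi204, a DNA-binding member of the interferon-inducible p200 family, had 11 and 5 counts in the controls, both under 20, and 3995 and 3744 with DMXAA. Its rise of 4.48 (SE 0.65) was the largest of the sensors, at 3.52 against the WT/B6 mouse and 5.44 against the cGAS KO/B6 mouse. The RNA helicase lgp2 rose by 1.75, its relative mda5, which detects long double-stranded RNA, by 1.48, and the p200 gene Ifi205 by 1.55, each with at least 20 counts in all 4 mice. These 3 were above both controls in both DMXAA mice, but per total count their differences were -0.24, -0.52 and -0.45.

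Other p200 genes were not called higher. The gene mnda had 24, 41, 45 and 27 counts in the WT/B6, cGAS KO/B6 and 2 DMXAA mice and fell by 4.39, near the -4.55 of a gene with equal counts. The gene mndal had 283 and 1816 counts in the controls and 8545 and 6197 with DMXAA, a difference of -1.20 that was not called (adjusted p = 0.140). That difference was -0.25 against the WT/B6 mouse and -2.15 against the cGAS KO/B6 mouse. The inflammasome DNA sensor aim2, with 37, 225, 1230 and 1020 counts, had a difference of -0.93 (adjusted p = 0.226), made up of -0.01 against the WT/B6 mouse and -1.84 against the cGAS KO/B6 mouse. The p200 genes are similar in sequence, and how far a probe counts more than 1 of them is not known here.

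Chemokines were higher throughout. All 5 CXC chemokines and both CC chemokines were called higher, with medians of 3.04 and 5.0, and the medians were above 0 under every scaling tried (1.96 for the CXC list with counts under 20 raised to 20). The monocyte and NK cell attractant ccl4 had 13 counts in the WT/B6 mouse, 26 in the cGAS KO/B6 mouse, and 64148 and 63641 with DMXAA (adjusted p = 3.39e-05). The T cell attractant ccl5 had 54, 247, 17903 and 19235 counts and rose by 2.78 (adjusted p = 0.00384). The CXCR3 ligand cxcl10 had 16 and 112 counts in the controls and 78085 and 76417 with DMXAA, a rise of 6.29 that was 7.30 against the WT/B6 mouse and 5.27 against the cGAS KO/B6 mouse. All 3 stood clear of both controls, and the WT/B6 values of ccl4 and cxcl10 rest on under 20 counts.

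Cxcl9, another CXCR3 ligand and a classical target of interferon-γ, rose by 1.77, from 16 and 33 counts to 2026 and 1647. The neutrophil attractants cxcl2 and cxcl6 rose by 4.71 and 3.04. Cxcl2 went from 6 and 14 counts to 6101 and 5150, and cxcl6 from 10 and 9 counts to 1734 and 1903. Cxcl1, also a neutrophil attractant and named after its values were seen, went from 6 and 10 counts to 731 and 541, a rise of 1.80. All control values of cxcl2, cxcl6 and cxcl1 are under 20 counts, as is the WT/B6 value of cxcl9, and per total count cxcl9 and cxcl1 are at -0.23 and -0.20. The name cxcl6 is a RefSeq synonym of Cxcl5.

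Both chemokine receptors of the panel were called lower, with a median of -2.16 (5.76 on the deposited signal and 2.38 on unscaled counts). Ccr2, which brings monocytes out of bone marrow, had 93, 68, 915 and 516 counts and fell by 1.43 (adjusted p = 0.0466). The ccr2 difference was -2.05 against the WT/B6 mouse and -0.82 against the cGAS KO/B6 mouse. Its call was lost with median-of-ratios scaling, centring on well-counted genes and voom, and without genes low in both controls. Ccr1, a receptor of ccl5, had 11, 24, 51 and 51 counts and fell by 2.89, with under 20 counts in the WT/B6 mouse.

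Proinflammatory cytokines showed the widest spread. Of 10, 3 were called higher and 7 lower, and their median was -2.23 (5.69 on the deposited signal and 2.31 on unscaled counts). It was -3.84 with counts under 20 raised to 20 and -3.74 without genes low in both controls, and 7 of the 10 have under 20 counts in a control. Tumor necrosis factor, tnfa on the panel, had 14 counts in the WT/B6 mouse, 90 in the cGAS KO/B6 mouse, and 32362 and 28257 with DMXAA. It rose by 5.19 (SE 0.65, adjusted p = 0.000547), or by 6.14 against the WT/B6 mouse and 4.24 against the cGAS KO/B6 mouse. Il6, named after its values were seen, had 11 counts in each control and 1879 and 1532 with DMXAA, a rise of 2.72. The control values of Il6 and the WT/B6 value of tnfa are under 20 counts.

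Il-1b, the inflammasome-processed cytokine of the interleukin-1 family, went the other way. It had 53 counts in the WT/B6 mouse and 56 in the cGAS KO/B6 mouse, and 20 and 21 in the DMXAA mice. Its centred level was 0.99 ± 0.49 without injection and -4.97 ± 0.17 with DMXAA (SD, n = 2 each), the largest fall of the panel at 5.96 (SE 0.42, adjusted p = 0.000115). It was the 1 gene called lower on unscaled counts, with a difference of -1.41, while on the deposited signal its difference was 1.97, the lowest of the 93. Both DMXAA mice thus had fewer counts of Il-1b and far more counts of tnfa than either control.

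Only 3 of the 93 genes had lower recovered counts in both DMXAA mice than in both controls. Beside Il-1b they were Il12a, the p35 subunit of interleukin-12, with 24, 36, 22 and 23 counts, and nlrp6, with 15, 13, 10 and 6. Il12a fell by 4.93 (adjusted p = 0.000149), and nlrp6, which is named for this count pattern and is under 20 counts in all 4 mice, fell by 5.40. By contrast, 76 genes had higher counts in both DMXAA mice than in both controls. Il-18, a second inflammasome product, had 36, 52, 74 and 77 counts and fell by 3.74 (4.18 on the deposited signal and 0.80 on unscaled counts).

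Genes of the interferon-γ axis did not move as a group. Of 9, 4 were called higher and 4 lower, and the median of -0.87 equals that of the panel (0.16 against the WT/B6 mouse alone, and 0.26 without genes low in both controls). Ifng itself had 12 and 19 counts in the controls, both under 20, and 17 and 29 with DMXAA. It fell by 3.99, not far from the value of equal counts. Nlrc5, the activator of MHC class I genes, had 33, 233, 1271 and 993 counts and was not called at -0.87 (adjusted p = 0.290), with 0.16 against the WT/B6 mouse and -1.89 against the cGAS KO/B6 mouse. Cxcl10, cxcl9, Irf1 and Ifi47, which type I interferon also induces, are the 4 members called higher.

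Among 5 anti-inflammatory cytokines, 1 was called higher and 3 lower, with a median of -4.50 (3.43 on the deposited signal and 0.05 on unscaled counts). When genes low in both controls are left out, only tgfb1 remains of this list, at 0.14. Il1ra, the antagonist that blocks the interleukin-1 receptor, rose by 1.94, from 14 and 16 counts to 1431 and 1256, a call that was lost without either DMXAA replicate. Il1ra and Il-1b differed in sign on this scale and on unscaled counts, but both were above 0 on the deposited signal and below 0 per total count. Tgfb1 had 67, 295, 3694 and 3516 counts and a difference of 0.14, at 0.82 against the WT/B6 mouse and -0.55 against the cGAS KO/B6 mouse. The 3 genes called lower were all under 20 counts in every mouse, and Il13 and Il-10 are named after their values were seen. Il-4 had 5, 5, 1 and 5 counts. Il13 had 13, 5, 2 and 8, and Il-10 had 9, 8, 11 and 7, so that these calls record counts that stayed low while the panel rose.

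Regulators of NF-kB were counted well in all 4 mice. Of 6, none was called higher and 4 were called lower, with a median of -2.25 (5.67 on the deposited signal, 2.29 on unscaled counts and -1.38 against the WT/B6 mouse alone). The subunit nfkb2 had 112 and 564 counts in the controls and 681 and 611 with DMXAA, and fell by 3.19 (adjusted p = 0.00250). The subunit nfkb1, with 83, 284, 1107 and 1039 counts, fell by 1.74. The deubiquitinase duba, which restrains interferon induction, had 59, 738, 643 and 609 counts and fell by 2.96 (SE 0.89), the gene on which the controls differed most, at -1.53 against the WT/B6 mouse and -4.39 against the cGAS KO/B6 mouse. IrakM, which inhibits Toll-like receptor signaling, had 22, 29, 104 and 72 counts and fell by 2.77.

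The feedback inhibitors a20 and IkBa had higher values than the rest of that list, and neither was called. The ubiquitin-editing enzyme a20 had 34 counts in the WT/B6 mouse, 260 in the cGAS KO/B6 mouse, and 7485 and 5365 with DMXAA. Its difference of 1.53 (SE 0.71, adjusted p = 0.0934) was 2.61 against the WT/B6 mouse and 0.45 against the cGAS KO/B6 mouse. IkBa, which holds NF-kB in the cytoplasm, had 39, 226, 4500 and 4337 counts. Its difference of 1.01 (adjusted p = 0.182) was 1.89 against the WT/B6 mouse and 0.13 against the cGAS KO/B6 mouse. Other settings with both controls did call the 2 genes higher. For a20 these were median-of-ratios scaling (adjusted p = 0.0319), centring on well-counted genes (0.0178), counts under 20 raised to 20 (0.00299), 10 added to every count (0.0448) and all 11 mice in the fit (0.0124). For IkBa they were median-of-ratios scaling (adjusted p = 0.0351), centring on well-counted genes (0.0342) and all 11 mice in the fit (0.0446). Both were also called on the deposited signal and on unscaled counts, and neither was with voom (adjusted p = 0.408 and 0.470), while per total count both differences were below 0.

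Of the 2 suppressors of cytokine signaling, 1 was called higher, and the median was 1.31 (-0.68 per total count). Socs1, the interferon-induced inhibitor of JAK kinases, had 21 and 32 counts in the controls and 7088 and 7323 with DMXAA. It rose by 3.57 (SE 0.38, adjusted p = 0.000302), and the controls agreed closely, at 3.49 and 3.66. Socs3, which acts mainly on interleukin-6 family receptors, had 56, 75, 859 and 716 counts and a difference of -0.95 that missed the threshold (adjusted p = 0.0591). Both DMXAA mice lay above the controls in socs1 and below them in socs3.

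**Figure D3:**
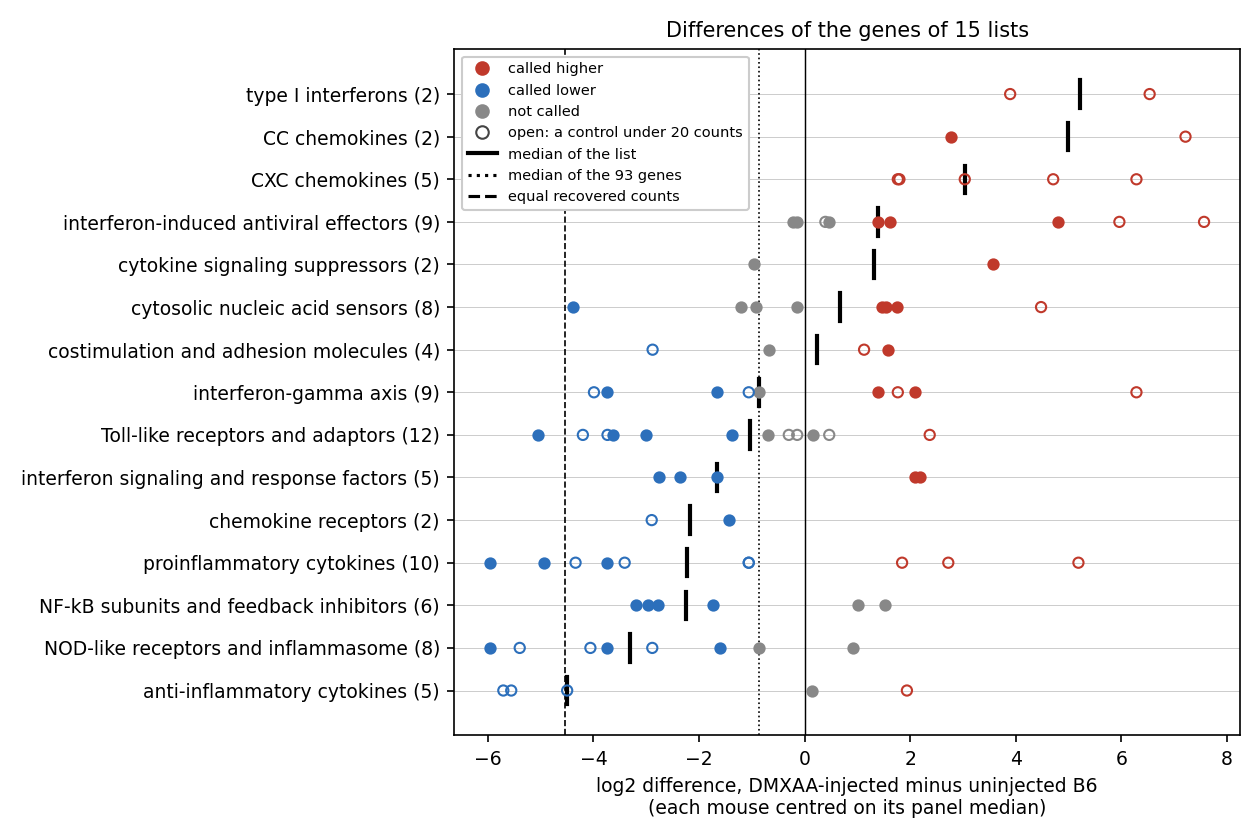
Log2 difference of each gene, DMXAA-injected minus uninjected B6, for 15 gene lists (number of panel genes in brackets); bars are list medians, and open circles mark genes with under 20 counts in a control. Type I interferons and both chemokine lists lie wholly to the right of 0 and above the panel median of -0.87, also per total count in their medians; lists with medians left of 0 have positive medians on the deposited signal and on unscaled counts.

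Toll-like receptors and their adaptors were called lower about as often as the panel. Of 12, 1 was called higher, 6 lower and 5 were not called, against 30.1% higher and 46.2% lower over the panel, with a median of -1.03 (6.90 on the deposited signal, 3.52 on unscaled counts and -0.58 with centring on well-counted genes). Tlr2, the receptor of bacterial lipoproteins, was the 1 that rose, by 2.37 (adjusted p = 0.00143), from 17 and 26 counts to 2662 and 2424. Its partner tlr1 had 40 and 190 counts in the controls and 66 and 57 with DMXAA, and fell by 5.05 (SE 0.55, adjusted p = 0.000323). These partners of a lipoprotein receptor thus moved apart on the centred scale, and the WT/B6 value of tlr2 is under 20 counts.

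The endosomal DNA receptor tlr9 had 25, 65, 72 and 81 counts and fell by 3.62. The chaperone unc93b, which carries nucleic acid-sensing Toll-like receptors to endosomes, had 412 and 1583 counts in the controls and 2473 and 2262 with DMXAA. Its share of panel counts was 11.4% and 12.8% in the controls and 0.382% and 0.377% with DMXAA, a centred fall of 2.99 (adjusted p = 0.00173). On the deposited signal the differences of unc93b and tlr9 were 4.93 and 4.30, and on unscaled counts 1.55 and 0.92. The tlr4 co-receptor md2, with 21, 47, 297 and 273 counts, fell by 1.36. The adaptor myd88 had a difference of 0.16, the RNA receptor tlr8 one of -0.69 and tlr3 one of -0.14, and none of the 3 was called. Tlr8 was at -1.24 against the WT/B6 mouse and -0.14 against the cGAS KO/B6 mouse. Tlr3 had 17 counts in the WT/B6 mouse and differed in sign between the controls, at 0.11 and -0.38.

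NOD-like receptors and inflammasome genes had no member called higher. Of 8, 6 were called lower and 2 were not called, with a median of -3.31 (4.61 on the deposited signal and 1.23 on unscaled counts). Nlrp3, the sensor of the best-known inflammasome, had 45, 62, 439 and 381 counts and fell by 1.59 (adjusted p = 0.00861). Casp1, the protease that cleaves the precursors of Il-1b and Il-18, had 26, 94, 2295 and 2059 counts and a difference of 0.91 (adjusted p = 0.127). That difference was 1.45 against the WT/B6 mouse and 0.38 against the cGAS KO/B6 mouse. Both substrates were called lower and the protease was not called, and the difference between them was not tested.

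Of 4 costimulation and adhesion molecules, 2 were called higher and 1 lower, with a median of 0.23 (-1.77 per total count, 0.68 with centring on well-counted genes, 0.13 against the cGAS KO/B6 mouse alone and 0.12 without DMXAA replicate 1). Cd40, through which T cells license antigen-presenting cells, had 31, 78, 3804 and 3111 counts and rose by 1.58 (adjusted p = 0.0112). The CD28 ligands cd80 and cd86 did not rise relative to the panel median. Their differences were 5.05 and 7.26 on the deposited signal, and 1.67 and 3.88 on unscaled counts. Cd80 had 12, 57, 100 and 69 counts and fell by 2.88, with under 20 counts in the WT/B6 mouse, and cd86 had 39, 110, 1176 and 790 counts and a difference of -0.67 (adjusted p = 0.210).

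Outside the lists, dusp6, a phosphatase that turns off ERK, had 50 and 193 counts in the controls and 89 and 86 with DMXAA. It fell by 4.71 (SE 0.49, adjusted p = 0.000302), and on unscaled counts its difference was -0.17. The integrin chain cd18 and the Polycomb protein rybp were not called and differed in sign between the controls. Cd18 had 26, 16, 321 and 365 counts and was at -1.22 against the WT/B6 mouse and 0.26 against the cGAS KO/B6 mouse. Rybp had 19, 20, 506 and 501 counts and was at -0.21 and 0.50. The gene cox2, a member of the 1 list not reported here, had 2, 23, 220 and 208 counts and was not called either. It was at 1.81 against the WT/B6 mouse, whose value rests on under 20 counts, and -0.94 against the cGAS KO/B6 mouse. Its name is shared by a prostaglandin synthase and by the RefSeq symbol of a mitochondrial gene. In all, 9 of the 93 genes changed sign with the control, and none of them was called.

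Rises and falls of many sizes lost their call under another setting. When either DMXAA replicate was left out, 13 of the named genes lost their call, with adjusted p from 0.0712 to 0.309 in limma: the rises of Il1ra, cxcl1, cxcl9, lgp2, trex1, cd40, Ifi205, mda5 and Ifi47, and the falls of md2, ccr2, nlrp3 and nfkb1. Irf1 lost its call without DMXAA replicate 2 alone (adjusted p = 0.053). Duba was not called with median-of-ratios scaling, nor were md2, ccr2, nlrp3 and nfkb1. With centring on well-counted genes md2, ccr2 and nlrp3 lost their call (adjusted p from 0.0716 to 0.229), and without genes low in both controls ccr2 did (0.0542). With voom on the recovered counts, the genes ccl5, Irf1, trex1, cd40, Ifi47, ccr2 and duba had adjusted p from 0.0549 to 0.0730. Per total count the rises of Ifi204, Ifna4, socs1, cxcl6, ccl5, Il6, tlr2, Irf7 and Irf1 kept their direction but not their call. On unscaled counts dusp6, Il12a, tlr1, nlrp6, Il13 and Il-4 did so among the falls. With counts under 20 raised to 20, cxcl1 lost its call.

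Other genes gained a call. All 19 named genes that were not called were called in the same direction under at least 1 alternative, in part with 1 control alone or on a scale that shifts the whole panel. Beside a20 and IkBa, casp1 was called higher with median-of-ratios scaling (adjusted p = 0.0125), centring on well-counted genes (0.0233), 10 added to every count (0.0471) and all 11 mice in the fit (0.0249), whereas per total count it was called lower (0.0285). Oas2, adar and myd88 were called higher with median-of-ratios scaling (adjusted p from 0.0193 to 0.0314), and per total count adar and myd88 were called lower (0.0104 and 0.0213), as was tgfb1 (0.00754). Cox2 was called lower with counts under 20 raised to 20 (adjusted p = 0.0171) and against the cGAS KO/B6 mouse alone (0.0240), and it was called higher against the WT/B6 mouse alone (2.48e-05), on the deposited signal (5.52e-07) and on unscaled counts (0.00632). Socs3 was called lower with all 11 mice in the fit (adjusted p = 0.00567) and with trend and robust eBayes (0.0405). Mndal was called lower with counts under 20 raised to 20 (adjusted p = 0.0194) and with all 11 mice in the fit (0.0293). Per total count the negative differences of tlr3, zbp1, samhd1, cd86, tlr8, nlrc5, aim2, socs3 and mndal passed the threshold (adjusted p from 0.00417 to 0.0458). These 9 genes and cd18 were called higher on the deposited signal and on unscaled counts.

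Promoters of genes that rose were searched for elements that IRF proteins and NF-kB are known to bind. RefSeq promoters of GRCm38.p6 were paired with 64 panel genes, and the 250 bases before the transcription start were searched on both strands. Genes with more than 1 promoter were counted once. The core of the interferon-stimulated response element was searched as GAAANNGAAA. It was found for 5 of 20 genes called higher, 4 of 33 called lower and 2 of 11 not called. It was found for 11 of all 64 panel genes searched (17.2%) and for 3.46% of the 27025 genes of the table. The kB consensus was found for 9 of the 20, 4 of the 33 and 3 of the 11. That is 16 of the 64 panel genes (25.0%), against 8.23% of all genes. Shown are the 5 genes with the largest rises that have a single promoter in the table and hold either motif, 5′ to 3′ and ending at the base before the start. Capitals mark the motifs; each match is a description of letters and not a shown binding site.
Ifit1 (chr19:34640639-34640888, plus strand, 2 interferon-response cores): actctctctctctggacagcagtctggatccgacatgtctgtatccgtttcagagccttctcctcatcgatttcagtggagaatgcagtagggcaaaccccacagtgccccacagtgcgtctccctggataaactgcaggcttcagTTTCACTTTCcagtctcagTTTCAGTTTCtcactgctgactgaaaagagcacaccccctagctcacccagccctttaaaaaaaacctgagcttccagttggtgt
Ifnb1 (chr4:88522795-88523044, minus strand, 1 kB match): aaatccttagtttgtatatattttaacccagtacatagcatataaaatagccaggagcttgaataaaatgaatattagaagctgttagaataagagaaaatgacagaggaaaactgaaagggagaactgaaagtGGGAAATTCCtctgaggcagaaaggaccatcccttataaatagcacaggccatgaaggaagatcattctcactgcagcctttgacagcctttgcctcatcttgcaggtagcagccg
Cxcl10 (chr5:92348890-92349139, minus strand, 1 interferon-response core and 3 kB matches, of which 2 overlap each other): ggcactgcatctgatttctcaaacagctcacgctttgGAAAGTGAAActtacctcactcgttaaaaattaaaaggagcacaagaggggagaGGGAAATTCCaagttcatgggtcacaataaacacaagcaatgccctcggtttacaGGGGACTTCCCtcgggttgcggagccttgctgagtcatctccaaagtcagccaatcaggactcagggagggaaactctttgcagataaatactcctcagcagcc
Cxcl2 (chr5:90903649-90903898, plus strand, 2 kB matches that overlap each other): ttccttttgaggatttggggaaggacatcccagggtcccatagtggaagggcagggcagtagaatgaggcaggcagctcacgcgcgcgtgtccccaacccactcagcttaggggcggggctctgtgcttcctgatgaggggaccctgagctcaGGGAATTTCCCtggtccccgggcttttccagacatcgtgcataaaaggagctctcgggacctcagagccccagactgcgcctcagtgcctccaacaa
Ifna4 (chr4:88841566-88841815, plus strand, 2 interferon-response cores): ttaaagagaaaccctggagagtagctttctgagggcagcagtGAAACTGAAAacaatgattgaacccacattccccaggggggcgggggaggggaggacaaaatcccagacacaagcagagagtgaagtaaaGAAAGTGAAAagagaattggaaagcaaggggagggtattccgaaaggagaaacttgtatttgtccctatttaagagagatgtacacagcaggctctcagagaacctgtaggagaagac
Of these, cxcl10 alone holds both motifs, as searched, in this window. In its promoter no interferon-response core overlaps a kB match. The core was searched with a gap of 2 bases only. Stretches with another gap, such as gaaaactgaaa in the Ifnb1 sequence, were not counted.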

How the data were processed

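Total RNA of mouse spleen, 50 ng per mouse, was hybridized to a custom nCounter probe set. The deposited signal is linear, and the authors normalized it to housekeeping genes that are not named in the sources used here. Whether background was subtracted is not given there either. Signal was read for all 11 mice and divided by the factor of each mouse to recover counts. The groups came from the sample labels. Levels were log2 signal minus the panel median of the mouse, with no pseudocount since no value was 0. The arms were compared with limma 3.58.1 in R 4.3.3 (lmFit and eBayes, two-sided) over 4 mice and 93 genes, with Benjamini-Hochberg adjustment and a threshold of 0.05, after testing on simulated data. Intervals and figures used Python 3.11.15, SciPy 1.17.1 and Matplotlib 3.10.9. The spread of the uninjected arm holds any genotype difference.

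The counts of the 2 DMXAA samples differed by more than sampling noise (chi-square per degree of freedom 27.1), as repeat hybridizations of the same RNA also can; that these are separate mice rests on the labels. Of the 93 names, 79 matched a RefSeq symbol and 12 a synonym. Viperin and IkBa matched none, and cox2, which matched a mitochondrial symbol, was left out of the promoter search.

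Named genes were the 12 largest rises called, the 10 largest falls called with at least 20 counts in all 4 mice, the well-counted and extreme members of each gene list, both type I interferon genes and genes whose controls disagreed in sign. The genes and lists were chosen with earlier results of these data known, so lists are described by counts and medians. Some genes that this rule names, and 1 list, are not reported here. Of 24 lists, 8 had no member on the panel: markers of T cells, B cells, myeloid cells, neutrophils, plasmacytoid dendritic cells, NK cells and erythroid cells, and housekeeping genes. Alternatives changed the control, the scaling, the treatment of low counts, the mice and the model. The 7 MRL mice entered only 1 alternative.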

Additional observations from a re-analysis of the deposited data

How the results depend on the processing

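The choice of scale decided the sign of most falls, whereas the 12 largest rises kept their sign under every alternative that gave them a value (7 of the 12 have one without genes low in both controls). Counts of genes called were 28 higher and 43 lower. They became 87 and 0 on the deposited signal without centring (limma, 0 lower also at an unadjusted p under 0.05; 31 lower with median-of-ratios scaling), 8 higher per total count, and 66 and 1 on unscaled recovered counts, an alternative chosen after seeing the data. Leaving out genes low in both controls gave 28 lower calls among fewer genes tested. Without a DMXAA replicate there were 16 to 17 higher calls, from fewer mice, with the lone DMXAA mouse assumed to vary like the controls. The remaining alternatives stayed within 1.5 times both counts; the 2 with 1 control take their spread from the DMXAA pair alone and say nothing about stability. The median difference of the antiviral effectors, 1.38, was 9.31 on the deposited signal, -0.61 per total count, 2.24 with median-of-ratios scaling, 1.83 with centring on well-counted genes, 1.65 with 10 added to every count, 0.92 without genes low in both controls and 5.93 on unscaled counts. The 5 scalings and centrings among these shift all genes alike, which sets their values; for the 2 changes to low counts the cause was not tested.

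Signs of 70 named genes were compared over 15 alternatives, and 103 of the differences changed sign, while 59 kept their sign and lost a call and 59 kept it and gained one. On the deposited signal they were tlr3 7.79, zbp1 7.77, samhd1 7.70, cd18 7.45, cd86 7.26, tlr8 7.23, nlrc5 7.06, aim2 7.0, socs3 6.98, mndal 6.72, md2 6.56, ccr2 6.49, nlrp3 6.33, nfkb1 6.18, stat3 5.57, Irf2 5.53, Irf5 5.17, IrakM 5.15, cd80 5.05, ccr1 5.03, duba 4.96, unc93b 4.93, nfkb2 4.74, tlr9 4.30, Il-18 4.18, Ifng 3.93, mnda 3.53, Il-10 3.43, dusp6 3.21, Il12a 2.99, tlr1 2.87, nlrp6 2.53, Il13 2.37, Il-4 2.22 and Il-1b 1.97. On unscaled counts they were tlr3 4.41, zbp1 4.40, samhd1 4.32, cd18 4.07, cd86 3.88, tlr8 3.85, nlrc5 3.68, aim2 3.62, socs3 3.60, mndal 3.34, md2 3.18, ccr2 3.11, nlrp3 2.95, nfkb1 2.80, stat3 2.19, Irf2 2.15, Irf5 1.79, IrakM 1.78, cd80 1.67, ccr1 1.65, duba 1.58, unc93b 1.55, nfkb2 1.36, tlr9 0.92, Il-18 0.80, Ifng 0.56, mnda 0.15 and Il-10 0.048. Per total count they were Il1ra -0.057, cxcl1 -0.20, cxcl9 -0.23, lgp2 -0.24, trex1 -0.38, cd40 -0.41, Ifi205 -0.45, a20 -0.47, mda5 -0.52, Ifi47 -0.61, IkBa -0.99, casp1 -1.08, oas2 -1.53, cox2 -1.56, adar -1.60, myd88 -1.84, rybp -1.85 and tgfb1 -1.86. With median-of-ratios scaling they were tlr3 0.72, zbp1 0.71, samhd1 0.64, cd18 0.38, cd86 0.19 and tlr8 0.17, and with centring on well-counted genes tlr3 0.31, zbp1 0.29 and samhd1 0.22. Against the WT/B6 mouse alone they were rybp -0.21, tlr3 0.11, zbp1 0.17, samhd1 0.61 and nlrc5 0.16, and against the cGAS KO/B6 mouse alone cox2 -0.94, tgfb1 -0.55 and cd18 0.26. With counts below 20 set to 20 they were cox2 -1.23 and adar -0.036, and with 10 added to every count cox2 -0.62, zbp1 0.11 and samhd1 0.068. For the changes of control and of low counts, the cause was not tested. No named gene changed sign with all 11 mice in the fit, with trend and robust eBayes, with voom or without either DMXAA replicate, nor did the 57 that remain without genes low in both controls.

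The planned edgeR alternatives were not run. Voom on the recovered counts was added after seeing the data. It called 22 genes higher and 41 lower. No paired analysis was possible because the uninjected mice share the number 1 and only 1 number is common to both arms. Low counts limit the control values: 48 of 93 genes had under 20 counts in at least 1 control. Among them were 17 of the 28 called higher and 23 of the 43 called lower. Whether low depth or low expression lies behind these counts was not tested.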
